A study of Mus musculus with 15 samples.

Results

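The Zfp genes are the mouse genes whose symbol is Zfp followed by a number, a naming series for zinc finger proteins. They were taken by that symbol alone from the expression table of early embryos, leaving out Zfp352, and 282 of the 14392 genes in the table qualified. The RNA-seq data covered 8 libraries of 10 pooled C57BL/6 embryos each, made with Smart-seq2, a method that copies polyadenylated RNA from a few cells. Wild-type (WT) and cKO pools were made at the zygote stage and again at the 2-cell stage, 2 of each kind, and the comparisons ask how loss of the maternal histone H2A deubiquitinase USP16 bears on transcripts at both stages. The cKO embryos had the genotype Usp16 maternal -/ paternal +. Their mothers were Usp16 fl/fl;Gdf9-Cre females, in which Cre acts in oocytes from the primordial follicle stage on. Their fathers were WT, so the embryo carried an intact paternal allele. Mothers were superovulated at 21 to 23 days of age and mated with males 10 to 12 weeks old, embryos were cultured in KSOM medium, and the WT libraries came from females with no deletion. Nothing in the labels states how many mothers gave a pool, so p-values measure only the spread between pools. The main limma model took this spread from all 4 groups together, with a prior from all genes. The tighter zygote libraries therefore enter the p-values of the 2-cell comparison.

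Most Zfp proteins bind DNA through tandem C2H2 fingers, each folded around a zinc ion held by 2 cysteines and 2 histidines. Many also carry a KRAB box, which recruits TRIM28 and with it SETDB1, HP1 proteins and the NuRD complex, and these proteins are known for silencing retroviral sequence and for keeping the methylation of imprinted genes through the first divisions. Other members act on RNA, ribosomes, the spindle or ubiquitin. In the mouse, the fertilized egg starts with RNA stored in the oocyte, and the main wave of zygotic genome activation takes place at the 2-cell stage.

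The features of the members were read from GENCODE M1 on NCBIM37, the assembly also called mm9. It names 342 such genes, of which 279 were in the table, and 3 further members were not found by symbol. A KRAB box match was found in 164 of the 279 coding sequences and none in 115, and 64 other genes of the table had one. The median member held 10 matches to the C2H2 pattern, with a range of 0 to 36, and the median was 12 with a KRAB match and 7 without. Chromosome 7 carried 71 members, chromosome 17 carried 37, chromosome 8 carried 22 and chromosome 13 carried 21. Because many members arose as copies of each other, reads trimmed to 50 bp may be shared. No 50-base word was shared with another gene in 169 members, whereas over 10% of the words were shared in 22 and over 30% in 10, among them Zfp747 (37.1%) and Zfp932 (45.1%), whose values are uncertain for that reason.

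Across all genes, the summed FPKM (fragments per length of transcript, corrected for the number mapped) was 770989 in cKO 2-cell replicate 2 and between 547752 and 593317 in the other 7 libraries. Every value under 1 had been set to 1, called the floor here. Libraries at the floor show no spread, so limma SE and p-values of genes with whole groups there rest partly on values set to 1. Usp16 itself stood at 184 and 187 FPKM in WT zygotes and at 16.8 and 22 in cKO zygotes, a 9.58-fold lower mean with no overlap (adjusted p = 0.191, limma). At the 2-cell stage it stood at 168 and 183 FPKM in WT and at 168 and 84.8 in cKO, where the paternal allele was present. Of 12 oocyte markers, all were in the table and above the floor in every library. Of 16 follicle cell markers, 4 were in the table, and Foxl2, Tnfaip6 and Vim were at the floor in all 4 zygote libraries, while Cyp19a1 read 22.3 to 26.7 FPKM there. Summed FPKM of these 4 was 25.3 to 29.7 in zygotes, 6.08 and 13.3 in WT 2-cell embryos and 5.08 and 4.32 in cKO 2-cell embryos. The part of other cells in the results was not tested. Of 12 genes known to mark the 2-cell stage, 9 were in the table. More than 3-fold lower means in cKO 2-cell embryos were found for 6 of the 9, the Zscan4 genes among them (13.5% of all genes). By limma with Benjamini-Hochberg adjustment, 8 were lower (24.6% of all genes) and 1 higher (6.16%). The higher one was Eif1a, with 73.8 and 70.3 FPKM in WT and 118 and 139 in cKO (adjusted p = 0.0226, limma).

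**Figure D1:**
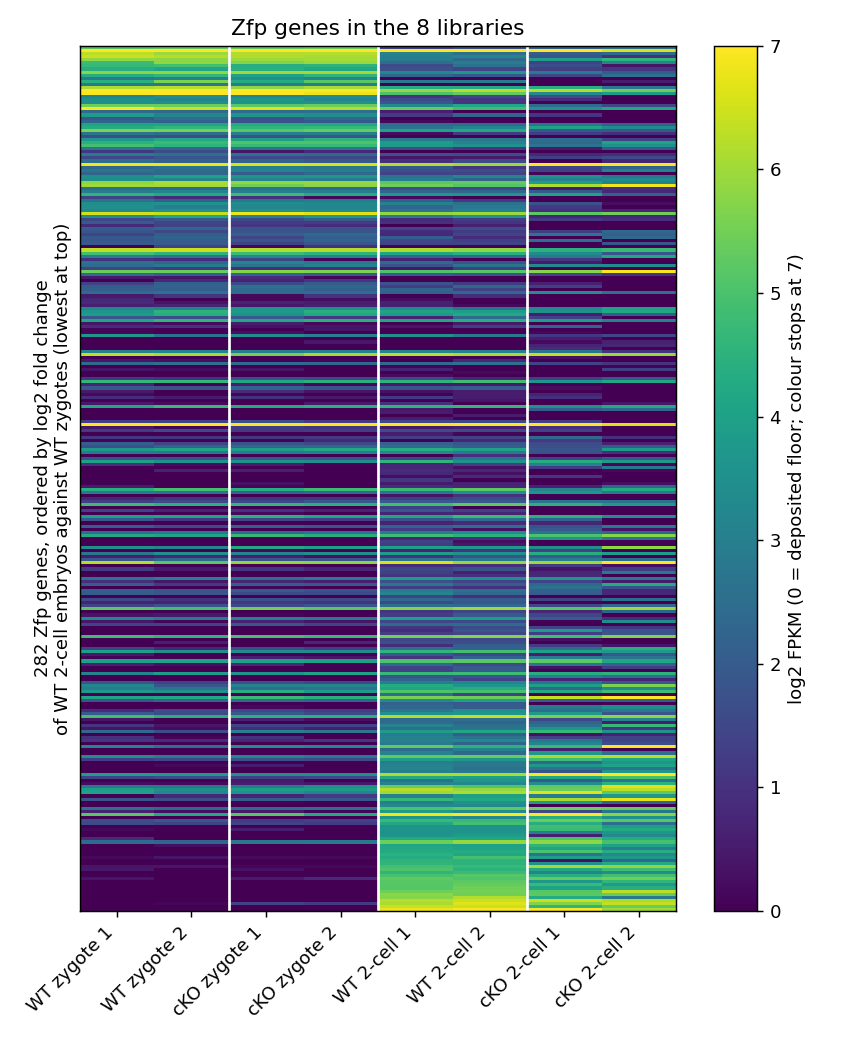
log2 FPKM of the 282 Zfp genes (rows, ordered by their log2 fold change from WT zygotes to WT 2-cell embryos) in the 8 libraries (columns), where 0 is the deposited floor and the colour stops at 7. The 4 zygote libraries resemble each other, many rows at the floor in zygotes are above it in WT 2-cell embryos, and the 2 cKO 2-cell libraries differ visibly from each other.

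In zygotes a few Zfp transcripts made up much of the total. Zfp57, the KRAB protein that guards imprinted methylation, had 1325 and 1135 FPKM in the WT libraries and 1369 and 1106 in the cKO libraries. It alone accounted for 26.1% to 30.5% of the summed FPKM of the 282 genes in the 4 zygote libraries, and for 2.19% to 4.52% in the 4 libraries of 2-cell embryos. Next in WT zygotes came the KRAB gene Zfp655 at 237 ± 4.91 (SD, n = 2), Zfp706 at 194 ± 2.79, Zfp957 at 126 ± 5.11 and the spindle protein gene Zfp207 at 116 ± 2.37. Neighbours in this order were further apart than the SD of either.

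At the other end, 68 members were at the floor in all 4 zygote libraries. A further 149 had a zygote mean below 10 FPKM, and 65 had at least 10. Between 76 and 93 members were at the floor in each zygote library, but 23 and 28 were there in WT 2-cell embryos and 60 and 83 in cKO 2-cell embryos. The median member read 2.45 to 2.66 FPKM in zygotes, 5.26 and 5.22 in WT 2-cell embryos, and 3.58 and 3.79 in cKO 2-cell embryos.

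In WT 2-cell embryos the order was different. Zfp706 was highest at 218 ± 47.7 FPKM (SD, n = 2), followed by Zfp296 at 159.5 ± 63.7, Zfp57 at 132 ± 10.9, the KRAB gene Zfp707 at 117 ± 8.58 and the KRAB gene Zfp54 at 86.6 ± 2.87. The libraries of Zfp296, at 115 and 205 FPKM, overlapped those of Zfp706 and Zfp57, whereas Zfp57 with 125 and 140.2 lay just above Zfp707 with 110.4 and 123.

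In zygotes every Zfp gene was within 3-fold of its WT mean. No member had group means more than 3-fold apart, compared with 7 of all 14392 genes lower in cKO (0.0486%) and 15 higher (0.104%). limma with Benjamini-Hochberg adjustment over all genes called 0 members (0% of all genes lower and 0.0208% higher). limma gave 2 members lower (0.584% of all genes) and 1 higher (2.25%) before adjustment, and without regard to size 30 lay below WT in each cKO library (10.2%) and 51 above (15.8%); with a 2-fold threshold on the means 1 member was higher. That was Zfp809, a KRAB protein that silences murine leukaemia provirus, with 1.00 and 1.08 FPKM in WT and 2.68 and 2.22 in cKO zygotes. Its values did not overlap between the groups but lay just above the floor. The median log2 fold change of the members was 0.00, as it was over all genes.

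From the WT zygote to the WT 2-cell embryo the Zfp genes split into members that fell and a larger number that rose. More than 3-fold higher means were found for 76 members, or 27.0%, against 26.0% of all genes, and more than 3-fold lower means for 28, or 9.93%, against 8.78%. By limma with Benjamini-Hochberg adjustment, 98 members rose (34.2% of all genes) and 41 fell (15.5%), including all 28 and 72 of the 76. Without regard to size, 145 had both 2-cell libraries above both zygote libraries (49.4% of all genes) and 71 below (26.4%). The shares were near those of the whole table, and the median log2 fold change was 0.31 for the members and 0.27 for all genes. When libraries were scaled by the median of their gene-wise ratios, called median-ratio scaling, that median was 0.05 and 0.03, with 63 members over 3-fold higher (19.7% of all genes) and 29 lower (11.4%), and limma calling 76 higher (25.2%) and 54 lower (19.0%). After quantile normalization the limma counts turned to 62 higher (21.6% of all genes) and 85 lower (27.3%), so which direction held more members depended on the scaling.

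The largest falls were among abundant zygote transcripts, which the floor requires, because a fall in fold cannot exceed the zygote mean in FPKM. Zfp60, a KRAB gene with 19 finger matches, went from 35.4 and 38.4 FPKM in WT zygotes to 2.40 and 3.26 in WT 2-cell embryos, a 13.1-fold lower mean with a log2 change of -3.32 ± 0.23 (SE; adjusted p = 1.71e-04, limma). The KRAB gene Zfp58 went from 79.3 and 62.7 to 8.62 and 6.04 FPKM. Both genes were many times lower in each 2-cell library than in each zygote library. Zfp750, whose human counterpart drives differentiation of the epidermis, had 84.8 and 76.0 FPKM in zygotes and 7.77 and 9.03 in 2-cell embryos. Zfp57 dropped to 125 and 140.2 FPKM, a 9.29-fold lower mean (log2 change -3.20 ± 0.33; adjusted p = 5.64e-04, limma), and Zfp873 went from 58.2 and 55.7 to 7.60 and 5.36. In all 5 the groups did not overlap. Over the 28 members, the folds ran from 3.0 to 13.1. Of those with a coding sequence, 18 had a KRAB match and 9 had none. Among all 279 members with a coding sequence these counts were 164 and 115, and a difference in share was not tested.

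The largest rises started from the floor, so that their folds are lower bounds. Zfp707 stood at the floor in every zygote library and read 110.4 and 123 FPKM in WT 2-cell embryos, at least 117-fold higher (log2 change on the log2(FPKM + 1) scale 5.87 ± 0.33; adjusted p = 1.06e-04, limma). Zfp54 went from the floor to 84.6 and 88.6 FPKM, and Zfp566, also with a KRAB match, to 52.7 and 73.5. Zfp622, a factor that matures the large ribosomal subunit, rose from the floor to 75.4 and 86.5 FPKM. Zfp809 read 68.7 and 103 FPKM after 1.00 and 1.08 in zygotes. Each of these 5 was at or next to the floor in every WT zygote library and above 50 FPKM in every WT 2-cell library. In all, 39 of the 76 members had a WT zygote mean of exactly the floor, and 48 reached a WT 2-cell mean of at least 10 FPKM.

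**Figure D2:**
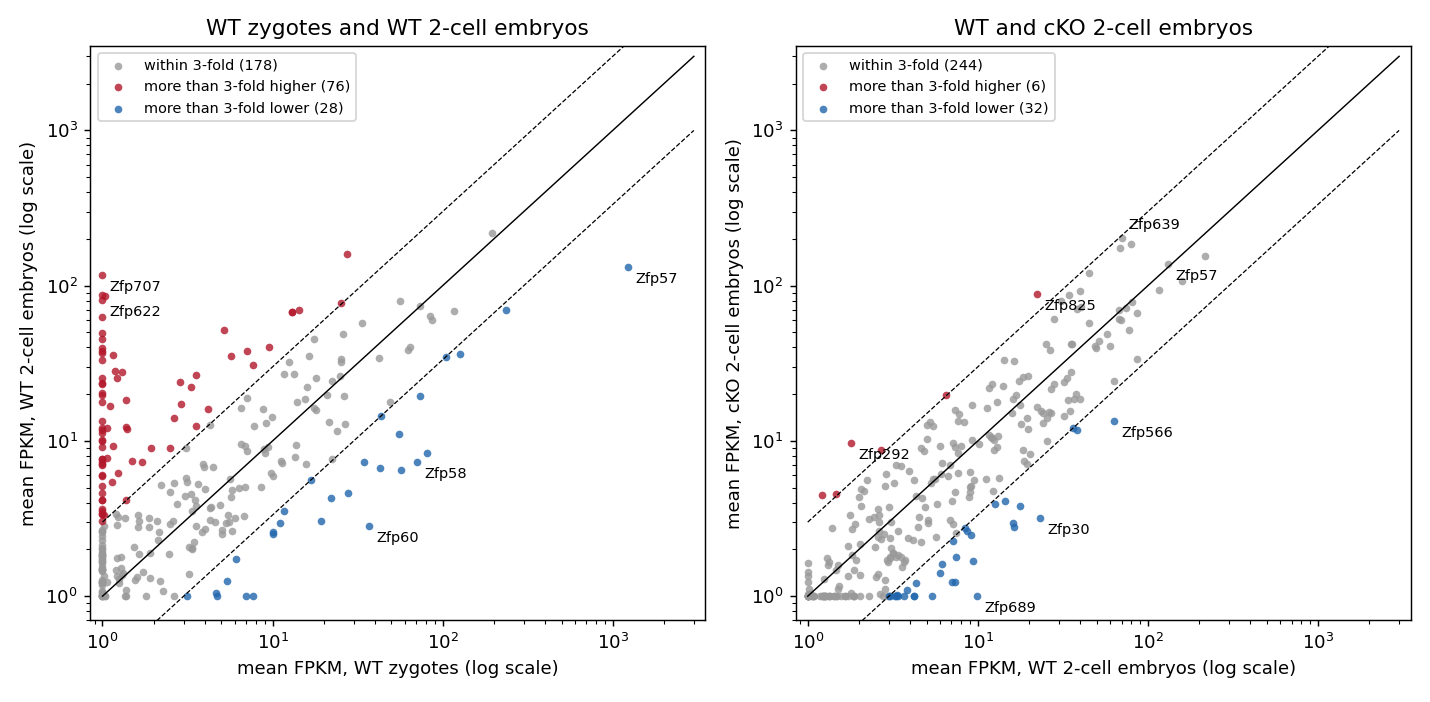
Mean FPKM of the 282 Zfp genes on log axes, with WT zygotes against WT 2-cell embryos on the left and WT against cKO 2-cell embryos on the right; each point is a gene, the solid line marks equal means and the dashed lines 3-fold. On the left 76 members lie above the upper line, 39 of them from the zygote floor, and 28 below the lower line; on the right 6 lie above and 32 below.

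At the 2-cell stage more Zfp genes were lower than higher in cKO embryos. The means of 32 members were more than 3-fold lower in cKO, or 11.3%, against 13.5% of all genes, and those of 6 more than 3-fold higher, or 2.13%, against 2.84%. In 109 members the cKO values were both under the lower WT value (43.4% of all genes), and in 40 both over the higher one (14%). limma with Benjamini-Hochberg adjustment called 51, or 18.1%, lower (24.6% of all genes) and 19, or 6.74%, higher (6.16%), among them all 32 of the lower and 4 of the 6 higher members. The share of lower members was below that of the table under each of these rules, a difference that was not tested, and the median log2 fold change was -0.23, compared with -0.30 over all genes.

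The balance depended on how the libraries were scaled. Median-ratio scaling raised the median of all genes from -0.30 to 0.00 and that of the members from -0.23 to 0.00. It left 10 of the 32 lower members past 3-fold (6.29% of all genes), with 24 higher (6.90%), and limma then called 24 lower (12.1%) and 31 higher (9.98%). With quantile normalization limma called 12 lower (10.2%) and 35 higher (9.52%), and with sum scaling 65 lower (28.2%) and 12 higher (3.84%), where 39 were over 3-fold lower (16.8%) and 3 higher (1.71%). Whether less RNA per embryo or other transcripts taking a larger share gave these values cannot be told apart in FPKM, nor can fewer intact blastomeres and less RNA per blastomere. A limma model of the 4 libraries of 2-cell embryos alone called 0 members, with a lowest adjusted p of 0.0598 and with 56 lower and 15 higher before adjustment. Spread between the replicates was larger here than in any other group. In 34 members, or 12.1%, next to 13.3% of all genes, the 2 cKO libraries were more than 3-fold apart (14 higher in replicate 1 and 20 in replicate 2), compared with 1 member in WT 2-cell embryos and 0 in either zygote group.

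The members with the largest folds lower in cKO included several that were at the floor in zygotes. Zfp689, a KRAB gene, read 10.1 and 9.77 FPKM in WT and was at the floor in both cKO libraries, at least 9.94-fold lower (log2 fold change -2.45 ± 0.11; adjusted p = 5.91e-04, limma). Its zygote libraries were at the floor as well, so that this SE and p-value rest largely on values set to 1, not on spread between pools. Zfp30, a KRAB gene, read 23.4 and 23 FPKM in WT and 1.23 and 5.16 in cKO, a 7.27-fold lower mean (log2 fold change -2.71 ± 0.45; adjusted p = 0.00814, limma). Its cKO libraries lay more than 3-fold apart, though both were below WT, and without either WT library the adjusted p was 0.0595 or 0.0593.

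Zfp616 had 7.16 and 7.46 FPKM in WT and 1.00 and 1.47 in cKO, Zfp946 had 13.9 and 18.8 in WT and 1.45 and 4.17 in cKO, and Zfp572 had 5.56 and 8.48 in WT and 1.46 and 1.00 in cKO. The groups of all 3 were apart, with folds of 5.92, 5.80 and 5.70. The limma call of Zfp616 was lost without any 1 of the 4 libraries (adjusted p 0.0622 to 0.131) and that of Zfp946 without either WT library (0.0598 and 0.0903), and median-ratio scaling ended both (0.110 and 0.0686), whereas Zfp689 and Zfp572 passed under each of the 8 alternatives run for single genes.

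Among the 32, the folds ran from 3.01 to 9.94, and 10 members were at the floor in both cKO libraries, so that theirs are lower bounds. The median WT mean was 7.24 FPKM, and 9 had at least 10. The most abundant of the 32 in WT was Zfp566, chosen for this remark after its values were seen, with 52.7 and 73.5 FPKM in WT against 19.7 and 7.09 in cKO, a 4.72-fold lower mean. Both cKO values were far below both WT values, and they were also apart from each other. The 10 that stayed past 3-fold after median-ratio scaling were Zfp30, Zfp90, Zfp212, Zfp238, Zfp566, Zfp572, Zfp616, Zfp689, Zfp946 and Zfp956.

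Of the 6 higher members, 3 met the naming rule. Zfp292, a gene with 14 finger matches and no KRAB match, read 1.69 and 1.91 FPKM in WT and 13 and 6.46 in cKO, a 5.41-fold higher mean (log2 fold change 1.87 ± 0.29; adjusted p = 0.00650, limma, or 0.0504 without WT 2-cell replicate 1). The KRAB gene Zfp825 read 25.2 and 19.2 in WT and 69.5 and 107 in cKO, a 3.97-fold higher mean (log2 fold change 1.92 ± 0.27; adjusted p = 0.00536, limma). Zfp873 read 7.60 and 5.36 FPKM in WT and 15.2 and 24.4 in cKO, a 3.05-fold higher mean (adjusted p = 0.0122, limma, 0.0628 without WT 2-cell replicate 2 and 0.0541 with the replicate block). In each of the 3 both cKO libraries were above both WT libraries. In zygotes Zfp873 had been at 58.2 and 55.7 FPKM in WT and at 62.4 and 65.8 in cKO, so that its cKO 2-cell values lay between those of zygotes and WT 2-cell embryos. The WT 2-cell libraries serve in both comparisons, and the folds of Zfp873 in them are therefore not independent.

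**Figure D3:**
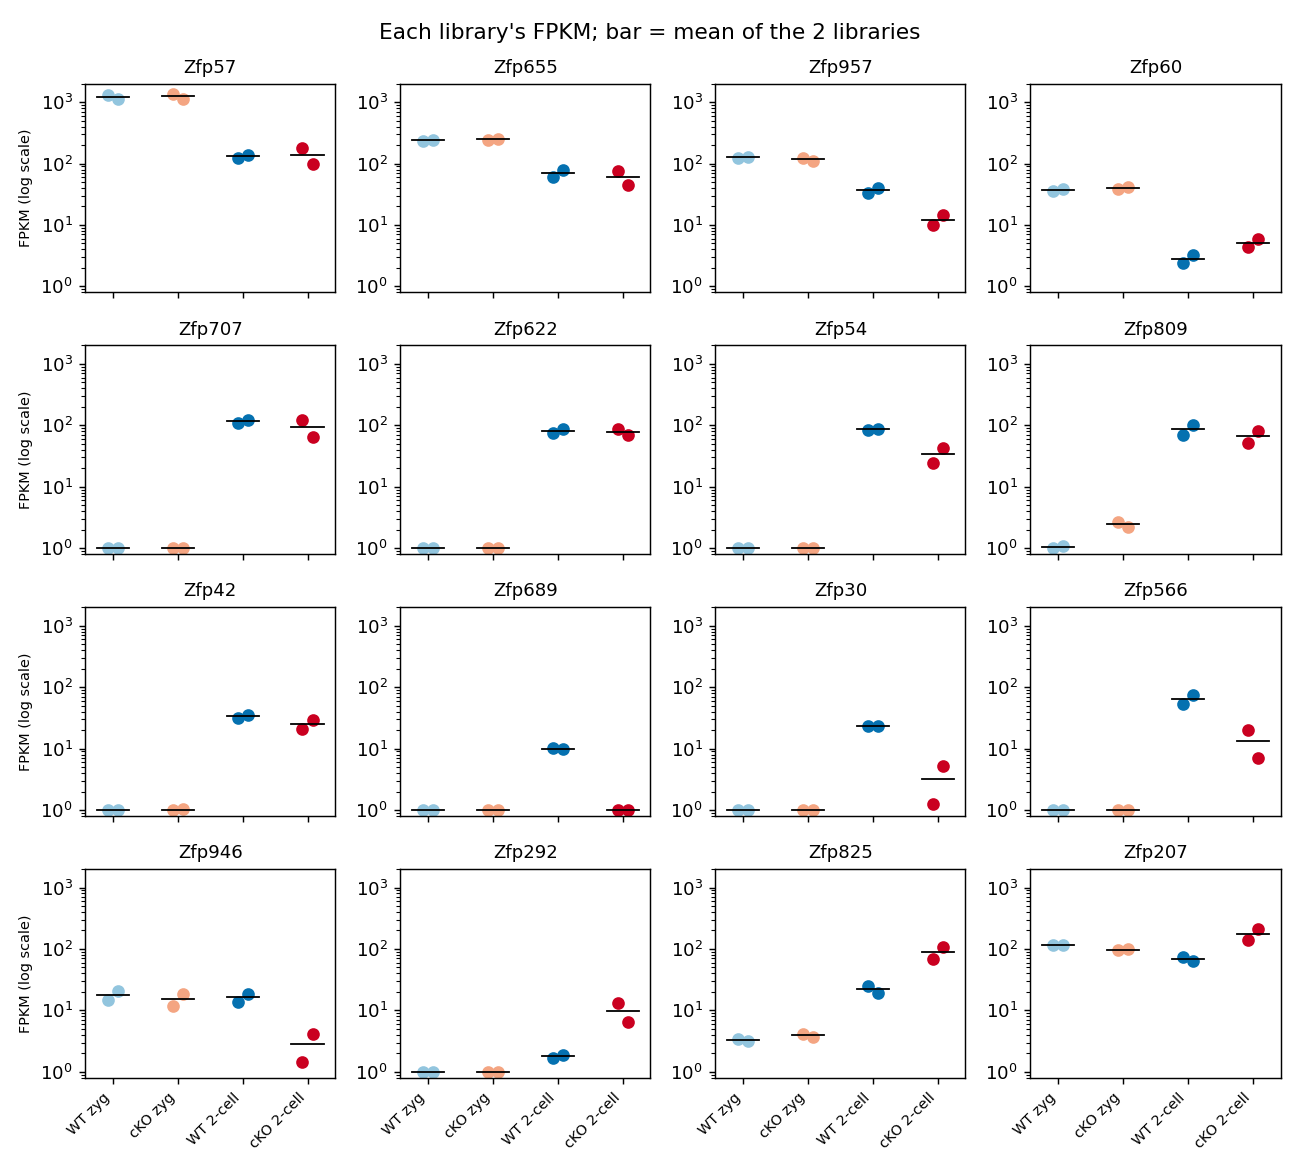
FPKM on a log axis of 16 Zfp genes in every library, with points for the 2 libraries of each group and a bar for their mean. Zfp57, Zfp655 and Zfp957 are lower at the 2-cell stage in both genotypes. Zfp707, Zfp622, Zfp54, Zfp809 and Zfp42 rise in both from the floor or just above it, with Zfp809 above the floor in cKO zygotes. Zfp689 stays at the floor in cKO 2-cell embryos, and Zfp292, Zfp825 and Zfp207 are above WT there.

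Promoter windows are shown for 6 of these genes, to set members that fell, rose or differed between the genotypes side by side. Zfp689 and Zfp30, labelled below by their cKO values, also rose more than 3-fold in WT from the zygote floor. The sequences are from RefSeq on GRCm38.p6, from 250 bases before to 50 after the annotated start, written 5′ to 3′ on the strand of the gene. Capitals mark any of 7 motifs searched on both strands, namely CCGGAAGT (ETS), GGGCGG (SP/KLF), CCAAT (NF-Y), TATAAA, TGACGTCA (CRE), AAGATGGCG (YY1) and GGATTA (OBOX); none is contained in another.
Zfp60, chr7:27731159-27731458, plus strand, fell in WT, 1 ETS motif: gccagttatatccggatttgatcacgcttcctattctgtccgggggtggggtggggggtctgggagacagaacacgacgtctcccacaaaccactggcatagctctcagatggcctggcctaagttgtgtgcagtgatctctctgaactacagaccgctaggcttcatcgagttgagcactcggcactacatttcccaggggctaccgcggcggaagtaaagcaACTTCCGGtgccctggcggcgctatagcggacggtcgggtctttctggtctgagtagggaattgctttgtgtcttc
Zfp622, chr15:25984116-25984415, plus strand, rose in WT, 1 SP/KLF motif: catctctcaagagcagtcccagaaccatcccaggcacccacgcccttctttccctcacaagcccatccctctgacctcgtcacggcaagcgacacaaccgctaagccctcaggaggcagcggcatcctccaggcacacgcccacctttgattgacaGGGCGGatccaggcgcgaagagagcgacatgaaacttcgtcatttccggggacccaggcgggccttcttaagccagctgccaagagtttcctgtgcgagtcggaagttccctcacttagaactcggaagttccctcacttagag
Zfp566, chr7:30090461-30090760, minus strand, rose in WT and lower in cKO, 1 SP/KLF motif: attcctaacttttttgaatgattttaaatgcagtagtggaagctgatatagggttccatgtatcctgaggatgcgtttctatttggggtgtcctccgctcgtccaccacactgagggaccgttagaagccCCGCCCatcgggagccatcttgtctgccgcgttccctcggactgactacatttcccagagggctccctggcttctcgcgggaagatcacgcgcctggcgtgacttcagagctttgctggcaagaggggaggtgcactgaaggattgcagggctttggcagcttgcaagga
Zfp689, chr7:127449109-127449408, minus strand, lower in cKO, 2 NF-Y motifs: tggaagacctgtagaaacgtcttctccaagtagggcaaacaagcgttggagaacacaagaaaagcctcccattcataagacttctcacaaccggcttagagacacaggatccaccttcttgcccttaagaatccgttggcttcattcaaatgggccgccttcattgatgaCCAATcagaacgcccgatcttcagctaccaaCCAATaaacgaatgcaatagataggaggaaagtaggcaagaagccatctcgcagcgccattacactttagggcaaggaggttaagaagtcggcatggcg
Zfp30, chr7:29783718-29784017, plus strand, lower in cKO, 1 NF-Y motif: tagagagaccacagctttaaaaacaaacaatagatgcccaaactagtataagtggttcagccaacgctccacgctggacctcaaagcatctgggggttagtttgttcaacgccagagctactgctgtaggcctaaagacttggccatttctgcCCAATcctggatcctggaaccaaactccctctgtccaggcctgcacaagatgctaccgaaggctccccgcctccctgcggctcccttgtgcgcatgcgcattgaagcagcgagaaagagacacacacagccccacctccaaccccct
Zfp292, chr4:34882899-34883198, minus strand, higher in cKO, 1 YY1 motif: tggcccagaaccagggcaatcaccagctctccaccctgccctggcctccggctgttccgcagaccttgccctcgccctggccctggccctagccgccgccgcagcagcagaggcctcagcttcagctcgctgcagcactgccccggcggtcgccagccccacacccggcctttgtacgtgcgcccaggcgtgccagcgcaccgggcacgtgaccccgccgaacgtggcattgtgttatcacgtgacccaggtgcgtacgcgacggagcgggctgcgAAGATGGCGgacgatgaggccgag

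Windows were found for 230 members, 286 in all. GGGCGG was present in 45.8% of them, compared with 57.4% of the windows of all genes in the table and 35.7% of all windows in the RefSeq table. It was in 55.6% of the windows of members more than 3-fold higher in WT 2-cell embryos than in zygotes and in 27.6% of those of members more than 3-fold lower. Their median number of CpG was 17 and 10. In members with a KRAB match the share was 35.9%, and in those without one 60.5%. CCAAT was in 46.5% of the members' windows, 38.8% of those of the table's genes and 37.4% of all windows, and CCGGAAGT in 10.8%, 7.13% and 3.89%. The windows of the members more than 3-fold lower in cKO 2-cell embryos held GGGCGG in 42.4% and CCAAT in 39.4%. GGATTA, the letters bound by OBOX proteins, was in 7.69% of the members' windows, 6.05% of the table's and 7.06% of all. In the same order, TATAAA was in 8.04%, 8.54% and 13.6%, TGACGTCA in 3.5%, 2.85% and 1.79%, and AAGATGGCG in 3.15%, 2.60% and 1.40%. The windows of Zfp58, which fell in WT, and of Zfp825, higher in cKO, are not printed. That of Zfp58 held CCAAT, and that of Zfp825 held GGGCGG and CCAAT. These are descriptions of the letters, and no binding was measured.

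A list held 7 KRAB repressors of imprinted or retroviral sequence. None had a mean more than 3-fold lower or higher in cKO 2-cell embryos (13.5% and 2.84% of all genes). Zfp819, tied to the repression of retroelements, was the only one called by limma, with 8.51 and 6.33 FPKM in WT and 2.52 and 2.59 in cKO (log2 fold change -1.23 ± 0.28; adjusted p = 0.0210), a call lost without any 1 of the 4 libraries (0.0587 to 0.115) and after median-ratio scaling (0.0599). Zfp57 at 125 and 140.2 FPKM in WT and 179 and 97.0 in cKO overlapped between the groups. Zfp445, which guards imprints alongside Zfp57, read 4.51 and 5.12 in WT and 11 and 6.18 in cKO, higher in both cKO libraries but with adjusted p = 0.135 (limma).

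The others of this list did not pass limma between the 2-cell groups. Zfp809 read 68.7 and 103 FPKM in WT and 51.3 and 82.2 in cKO, and Zfp568, which silences a placental Igf2 transcript, 7.06 and 11.4 against 13.1 and 7.40. Zfp708, a repressor of RMER19B elements, had 14.7 and 8.57 in WT against 5.36 and 16.5. Zfp932, which shares words with its copies, had 57.9 and 62.2 FPKM in WT and 36.9 and 44.3 in cKO, apart in both libraries with adjusted p = 0.0654 (limma). Except for Zfp932 these groups overlapped. From WT zygotes to WT 2-cell embryos, limma called Zfp57 lower and Zfp809 and Zfp819 higher (15.5% and 34.2% of all genes).

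Of 17 Zfp factors of pluripotency, development and transcription, 13 were in the table, and 7 of the 13 were more than 3-fold higher in WT 2-cell embryos than in zygotes, against 0 lower (26.0% and 8.78% of all genes). Zfp42 (REX1), a marker of pluripotent cells, was at the floor in WT zygotes and at 31.2 and 35.6 FPKM in WT 2-cell embryos (log2 change 4.10 ± 0.24; adjusted p = 1.22e-04, limma). Zfp143, which binds promoters, went from 5.46 and 4.93 to 43.7 and 59.3, and the pluripotency factor Zfp281 from 6.13 and 5.21 to 32.1 and 38.7. All 3 were higher in each 2-cell library. Zfp217 and Zfp296 rose as well, but limma lost Zfp217 without WT zygote replicate 2 (adjusted p = 0.0544) or WT 2-cell replicate 2 (0.0818), and Zfp296 without WT zygote replicate 2 (0.107) or either WT 2-cell library (0.0671 and 0.139). Zfp410, an activator of the NuRD gene Chd4, went from 11.1 and 7.83 to 39.0 and 41.7. The seventh, Zfp335, had a 5.04-fold higher mean with adjusted p = 0.0616.

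Against WT 2-cell embryos, limma called 2 of the 13 lower and 1 higher in cKO (24.6% and 6.16% of all genes). The median log2 fold change was -0.69, compared with -0.30 over all genes. Zfp238, a transcriptional repressor known from the developing brain, had 6.92 and 11.8 FPKM in WT and 1.65 and 1.73 in cKO, a 5.53-fold lower mean (adjusted p = 0.0143, limma, 0.0842 without WT 2-cell replicate 2 and 0.0600 after median-ratio scaling). Zfp423, a partner of SMAD proteins, had 2.63 and 2.72 in WT and 1.07 and 1.00 in cKO (adjusted p = 0.0153, limma; 0.0658 after median-ratio scaling). Zfp410 was higher, with 39.0 and 41.7 in WT and 67.9 and 78.4 in cKO (adjusted p = 0.0425, limma), a call lost without either WT library (0.137 and 0.113), without cKO 2-cell replicate 2 (0.0957), after sum scaling (0.0956), without the pseudocount (0.0527) and with the replicate block (0.0510). In each of these the groups did not overlap. Zfp42 read 21 and 29.5 FPKM in cKO, below both WT values, with adjusted p = 0.259.

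Among 12 members that act on RNA, ribosomes, the spindle, ubiquitin or SUMO, 7 rose and 2 fell by limma from WT zygotes to WT 2-cell embryos (34.2% and 15.5% of all genes). Zfp36 (tristetraprolin), which sends messages with AU-rich elements to decay, went from 1.00 and 1.21 to 17.2 and 16.2 FPKM, Zfp346, a protein of double-stranded RNA, from the floor to 18.8 and 16.9, and Zfp259 (ZPR1) from 1.28 and 1.34 to 30.3 and 25.8. Each was near the floor in zygotes and clear of it in 2-cell embryos. The SUMO ligase Zfp451 fell from 16.8 and 16.9 to 5.71 and 5.48 (adjusted p = 0.00322, limma). Zfp207 went from 118 and 115 to 74.0 and 63.2 (adjusted p = 0.0434, limma), and Zfp106 from 16.0 and 16.6 to 33.5 and 36.9 (0.0428); without any 1 WT library both calls were lost (0.0887 to 0.164 and 0.137 to 0.179), as they were with the replicate block (0.0633 and 0.0529). Median-ratio scaling (0.0719) and sum scaling (0.0999) also ended the call of Zfp106.

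In cKO 2-cell embryos 3 of the 12 were higher by limma and 1 lower (6.16% and 24.6% of all genes). Zfp207, which loads BUB3 at the spindle, had 74.0 and 63.2 FPKM in WT and 138 and 214 in cKO, a 2.57-fold higher mean (adjusted p = 0.0116, limma; 0.0616 without WT 2-cell replicate 2). Zfp259 had 30.3 and 25.8 in WT and 65.0 and 56.8 in cKO (adjusted p = 0.0123, limma; 0.0525 after sum scaling). Zfp593, a factor of the large ribosomal subunit, had 12.4 and 11.9 in WT and 27.4 and 19.3 in cKO (adjusted p = 0.0462, limma), a call lost without either WT library (0.117 and 0.134), after sum scaling (0.196), without the pseudocount (0.0760) and with the replicate block (0.0764). In all 3 both cKO libraries were above WT. Zfp326, a splicing partner of RNA polymerase II, was the lower one, with 3.27 and 3.20 FPKM in WT and both cKO libraries at the floor, at least 3.24-fold lower. The other ribosomal factor, Zfp622, overlapped between WT (75.4 and 86.5) and cKO (86.5 and 69.8).

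The partners through which KRAB proteins act were read from a list of 24 genes, of which 23 were in the table. In cKO 2-cell embryos, 2 were more than 3-fold lower and 1 higher (13.5% and 2.84% of all genes). limma called 4 lower and 4 higher (24.6% and 6.16% of all genes). Cbx1, which encodes HP1β, had 52.8 and 38.4 FPKM in WT and 10.8 and 8.14 in cKO (log2 fold change -2.15 ± 0.23; adjusted p = 0.00254, limma). Sumo2 had 483 and 440.4 in WT and 1562 and 1731 in cKO (log2 fold change 1.83 ± 0.29; adjusted p = 0.00736, limma). In both the groups were wide apart. Mta1 of the NuRD complex was the other member past 3-fold, with 6.60 and 4.16 FPKM in WT against 2.33 and 1.00 in cKO (adjusted p = 0.0356, limma).

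Other calls were Gatad2a (adjusted p = 0.0292, limma), which was lower, and Smarcad1 (0.0368), Morc3 (0.0373) and Trim33 (0.0424), which were higher. Trim28 itself read 40.1 and 38.7 FPKM in WT and 75.5 and 19.9 in cKO, with one cKO library above and one below WT. Setdb1, the histone methyltransferase of the complex, had 15.7 and 12.8 in WT and 14 and 8.28 in cKO, and Dnmt1 had 10.6 and 8.98 against 10.3 and 4.83. The groups overlapped in Setdb1 and Dnmt1. In zygotes none of the 23 was past 3-fold or called by limma. Sumo2 was nevertheless higher in both cKO zygote libraries, with 547 and 548 FPKM against 223 and 380.3 in WT, a 1.81-fold higher mean.

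Split by features that the symbol does not use, the members divided as follows. With a KRAB match, 17 of 164 were more than 3-fold lower and 1 higher in cKO 2-cell embryos (9.21% and 1.32% of all genes with a match), with a median log2 fold change of -0.25. Without one, 14 of 115 were lower and 5 higher (13.5% and 2.92% of all genes without), with a median of -0.22. After median-ratio scaling both medians were 0.00. By level, 8 of the 68 members at the zygote floor were lower and 4 higher (9.92% and 2.57% of all genes there). Of the 149 with a zygote mean below 10 FPKM, 14 were lower and 1 higher (11.2% and 2.62%), and of the 65 with at least 10, 10 and 1 (18.8% and 3.31%). The last group had a median of -0.51, compared with -0.53 for all genes of that level, and of -0.07 and -0.10 after median-ratio scaling. From WT zygotes to WT 2-cell embryos, 35 of the 68 were more than 3-fold higher (41.1% of all genes at that floor), and 20 of the 65, or 30.8%, were lower, compared with 979 of all 4894 genes of that level. These directions follow in part from the split, which uses the zygote values of the same comparison. Genes at the zygote floor cannot fall and are in the table only through a 2-cell library, and a 3-fold fall needs a level well above the floor.

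Many members sit in tandem clusters, and 13 groups of at least 5 members less than 500 kb apart were found on mm9. In the cluster at chr7:30553571-30954746, with 13 members, 4 were more than 3-fold lower in cKO 2-cell embryos (Zfp30, Zfp382, Zfp420 and Zfp566), and the median log2 fold change was -0.91, or -0.52 after median-ratio scaling. At chr6:47769265-48573226, 3 of 9 members were lower (Zfp212, Zfp398 and Zfp956), with a median of -0.71, or -0.33 after median-ratio scaling. At chr7:134376575-135029510, 2 of 7 were lower (Zfp689 and Zfp747), with a median of -0.69, or -0.27 after scaling. Over all members 11.3% were more than 3-fold lower, and over all genes 13.5%. These 3 clusters had the lowest medians and were chosen for naming after their values were seen. The largest cluster, chr17:21145905-22593656 with 16 members, had 1 lower member, Zfp946, and a median of -0.25, or 0.18 after median-ratio scaling, although 6 of its 16, Zfp54 among them, were more than 3-fold higher in WT 2-cell embryos than in zygotes. On chromosome 17 as a whole 1 of 37 members was lower (10.9% of all its genes), and on chromosome 7 there were 9 of 71, or 12.7%, next to 12.9% of all its genes.

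**Figure D4:**
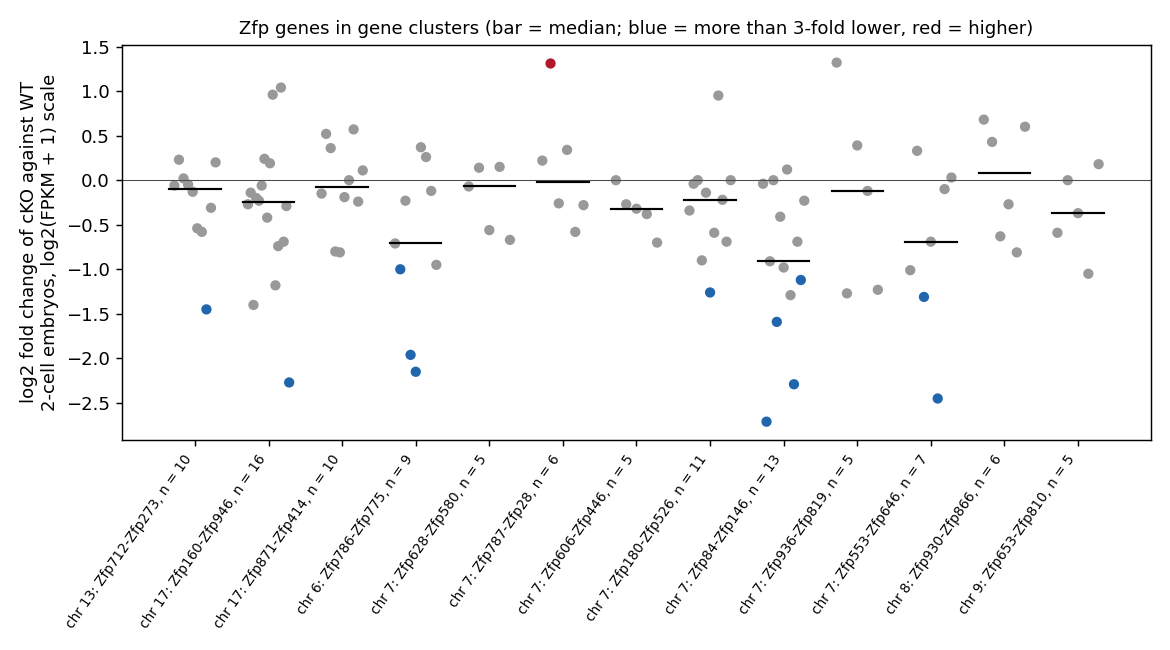
log2 fold change of cKO against WT 2-cell embryos, on the log2(FPKM + 1) scale, of the members in the 13 clusters, named by their first and last gene; each point is a gene, the bar is the cluster median, and blue and red mark means more than 3-fold lower or higher. The cluster from Zfp84 to Zfp146 has 4 blue points and a median of -0.91, and the median of the cluster from Zfp930 to Zfp866 is 0.08.

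Whether the genotype difference itself differed between the stages was tested by the limma interaction, which shares its libraries with the comparisons above. It called 28 members with Benjamini-Hochberg adjustment, 21 with a more negative difference at the 2-cell stage (10.2% of all genes) and 7 with a more positive one (1.58%). The adjusted p-values ran from 0.00472 for Zfp689 to 0.0498. A block for replicate number left 0 calls, with a lowest adjusted p of 0.0729 and with 51 negative and 14 positive before adjustment.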

How the data were processed

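Smart-seq2 libraries of 8 embryo pools were analysed, and 7 ChIP-seq samples of H2AK119ub1 in the series were not used here. Per the study's methods and the submitters' processing notes, the authors trimmed reads to 50 bp, mapped them to mm9 with TopHat2 2.1.1 and deposited normalized FPKM from Cufflinks 2.2.1, with genes under 1 in all samples left out and other values under 1 set to 1; the gene annotation and the further normalization are not given in the sources used here. FPKM is not a count, so depth is unknown and no counting interval is given; the kit does not mark strand, so an overlapping antisense gene cannot be told apart. Groups came from the sample titles. Means over 3-fold apart followed the study's rule. limma 3.58.1 (R 4.3.3) was fitted on log2(FPKM + 1), which understates changes of low genes, with a trend prior over 4 groups and 4 residual degrees of freedom, adjusted by Benjamini-Hochberg over all genes at 0.05. It was first run on simulated libraries with the noise of the WT 2-cell replicates in every group. That setting does not cover the larger spread of the cKO 2-cell libraries. An exact permutation of 2 against 2 libraries cannot give p under 0.333. Python 3.11.15, pyhmmer 0.12.3 and Biopython 1.88 served for features: fingers as C-x2-4-C-x12-H-x3-5-H, KRAB boxes by a profile from 180 windows (E under 0.001). Named genes were Usp16, 3 function lists, the 5 largest folds per direction with a mean of at least 5 FPKM and groups apart, the 5 highest per stage in WT, and TRIM28 partners past a threshold with Trim28, Setdb1 and Dnmt1. The members, lists and tests were chosen with earlier results of these data known. Deviations of same-numbered libraries correlated at 0.497 between the zygote groups and -0.239 between the 2-cell groups, and at 0.110 between the WT groups; since the labels tie the numbers to nothing shared and the signs differ, the numbers were not taken to pair the samples. Alternatives covered threshold, pseudocount, scaling, filter, the replicate block, the libraries in the model and leaving out each library. The values of 1 TRIM28 partner are not reported here.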

Additional observations from a re-analysis of the deposited data

Results flagged for a closer look

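The interaction of genotype and stage differed from 0 in 28 members by limma with Benjamini-Hochberg adjustment, and 9 of them are among the genes named above. On the log2 scale the difference was -2.45 for Zfp689, -1.83 for Zfp572, -1.14 for Zfp326, -1.44 for Zfp957 and -2.71 for Zfp30, all more negative at the 2-cell stage. It was 1.87 for Zfp292, 1.57 for Zfp207, 1.73 for Zfp825 and 1.24 for Zfp259, all more positive there. The zygote libraries of both genotypes were at the floor for Zfp689, Zfp572, Zfp30 and Zfp292, so that their interaction repeats the 2-cell difference. Under at least 1 alternative each of the 9 lost the call, with a highest adjusted p of 0.0729 for Zfp689, 0.103 for Zfp572, 0.608 for Zfp326, 0.219 for Zfp957, 0.174 for Zfp30, 0.159 for Zfp292, 0.160 for Zfp207, 0.150 for Zfp825 and 0.165 for Zfp259.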

How the results depend on the processing

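For cKO against WT 2-cell embryos, a 2-fold threshold gave 60 members lower and 26 higher, requiring every library to be 3-fold apart gave 13 and 2, a pseudocount of 1 gave 13 and 2, median-ratio scaling 10 and 24, and sum scaling 3 higher. limma called 24 and 31 with median-ratio scaling, 12 and 35 with quantile normalization, 12 higher with sum scaling, and 0 and 0 in the model of the 4 libraries alone (56 and 15 before adjustment). The medians were -0.23, 0.00 with median-ratio scaling, -0.35 with sum scaling and -0.30 without a pseudocount. In zygotes, a 2-fold threshold gave 1 higher, and the median above the floor was 0.01. For the WT stages, quantile normalization gave limma counts of 85 lower and 62 higher, and the median was 0.05 with median-ratio scaling, 0.12 above the floor and 0.49 without a pseudocount. The interaction gave 8 lower with median-ratio scaling, 3 with quantile normalization and 13 with a mean of at least 3 FPKM. The cause of these shifts was not tested.

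Leaving out 1 library at a time, the 2-cell fold counts were 27 to 46 lower and 6 to 19 higher (46 and 19 without cKO 2-cell replicate 1), the limma counts 43 to 78 lower and 7 to 42 higher (78 and 42 without cKO 2-cell replicate 1, 35 higher without cKO 2-cell replicate 2, 7 and 8 without WT 2-cell replicate 1 or 2), and the interaction 0 to 58 lower and 0 to 29 higher, with 0 without any 1 zygote library. The median was -0.26 to -0.21 there and 0.30 to 0.33 between the WT stages, whose counts were 25 to 27, 72 to 79, 30 to 34 (limma, lower) and 69 to 83 (limma, higher); zygote counts were 0 throughout.

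Under the replicate block, limma called 42 members lower and 7 higher in cKO 2-cell embryos, 37 and 96 between the WT stages, and the interaction 0 and 0 (51 and 14 before adjustment); the labels state no pairing. With the 2-cell numbers crossed, chosen after seeing the data, it called 52 and 19 there and 7 and 3 in the interaction. Of 376 alternative values for 47 values of named genes, 318 kept direction and call, 57 lost the call, 1 gained it and 0 changed direction. With 2 libraries a group, the spread within a group rests on few values, and differences below the floor cannot be read from these FPKM values.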
